A study of Drosophila melanogaster with 4 samples.

Results

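The genes described here are Defensin (Def) and the other antimicrobial peptide genes of the Drosophila humoral immune response. A list of 10 such genes was set out (Def, AttA, AttB, AttC, Dpt, DptB, Mtk, IM1, IM10 and IM23), and an array probe was taken as a member if the study named that probe, or the transcript it detects, by 1 of these symbols. This gave 5 probes of 4 genes, out of 32162 probes on the array, of which 2783 could be given any gene name (1950 names). Def had 2 probes, and IM1, IM10 and IM23 had 1 probe each. AttA, AttB, AttC, Dpt, DptB and Mtk had no probe that could be named and were not analysed here.

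Flies answer bacteria and fungi by secreting small peptides into the hemolymph, mostly from the fat body, the insect counterpart of liver and adipose tissue. The genes are switched on through the Toll pathway, which is triggered mainly by Gram-positive bacteria and fungi, and the Imd pathway, which is triggered mainly by Gram-negative bacteria, both ending in NF-kappaB transcription factors. Defensin is a cysteine-stabilised peptide active mostly against Gram-positive bacteria. The IM ("immune-induced molecule") names come from peptides first seen in the hemolymph of infected flies. IM1 and IM23 are now called BomS1 and BomBc1 and belong to the Bomanins, short peptides controlled by Toll that are needed to survive many Toll-type infections. IM10 is a fragment of the Baramicin A precursor, an antifungal protein also induced through Toll.

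RNA of 5-day-old virgin females was labelled with Cy3 and hybridised to 1-colour Agilent arrays, 2 for homozygous dSETD3 KO flies and 2 for control flies, which the series describes as biological replicates. The dSETD3 KO flies (w[1118];;CG32732-/-) came from a single knockout stock in which a dsRED cassette had taken the place of the first exon of CG32732, the fly gene for the SETD3 methyltransferase, and this allele had been crossed repeatedly into w[1118]. The control flies were isogenic w[1118] and carried no cassette. The deletion, the cassette and any other difference between the stocks, linked to the locus or not, therefore cannot be told apart. No infection or wounding is named in the labels, and the number of flies behind an array is not given in the sources used here. No dissection of the animals is named either, so fewer cells of a type and less RNA per cell cannot be told apart.

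An array detected between 63.6% and 66.8% of the probes well above background, and Pearson's r between the log2 values of replicate arrays, across probes, was 0.993 for dSETD3 KO and 0.991 for control. All 4 arrays lay on the same slide, each genotype in a different pair of positions, so position and genotype cannot be told apart. At probe A_09_P016351 of CG32732 the signal was 9.87 and 4.99 on the dSETD3 KO arrays and not well above background, against 7810 and 7999 on the control arrays. Signals are given below as scaled signals, in the array's own units, after each array was brought to the same 75th percentile. This percentile had been 1662 and 1179 on the dSETD3 KO arrays and 1630 and 1766 on the control arrays. With 2 arrays per genotype, the small number of arrays limits the precision. The limma p-values rest on the spread between these few arrays, drawn toward a common value estimated from all probes tested.

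All 5 member probes were represented by 1 spot per array and were well above background on all 4 arrays, so each had a measured level in both genotypes. Of the 5 probes, 1 was higher in dSETD3 KO flies and 2 were lower at a Benjamini-Hochberg adjusted p under 0.05 in limma, while 2 did not pass. Over all 21082 probes tested, 20.4% passed by the same rule, with 3.8% higher and 16.6% lower. The same 3 member probes changed at least 2-fold at an unadjusted p under 0.05, as did 1.4% (higher) and 4.89% (lower) of all probes tested. The median log2 change was -0.70 over the members and 0.02 over all probes tested. Both Def probes could be named only from a list of probes that the study had chosen for a change on these arrays, so their calls follow in part from how they were named. IM1, IM10 and IM23 were named from a list that included probes whatever their outcome, and of these 3 probes 1 was called.

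Def was the most changed member. At probe A_09_P012351 the scaled signal was 37.8 and 45.4 on the dSETD3 KO arrays, against 756 and 1018 on the control arrays. At the other Def probe, A_09_P114595, it was 73.4 and 122 on the dSETD3 KO arrays, against 2231 and 2906 on the control arrays. Neither probe overlapped between the genotypes, as was true of 76.6% of all probes tested. Even the highest dSETD3 KO array and the lowest control array differed by 16.7-fold at A_09_P012351 and by 18.3-fold at A_09_P114595. Def transcript was therefore above background at a much lower level in dSETD3 KO females than in control females, where it was well measured although no infection is named.

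**Figure D1:**
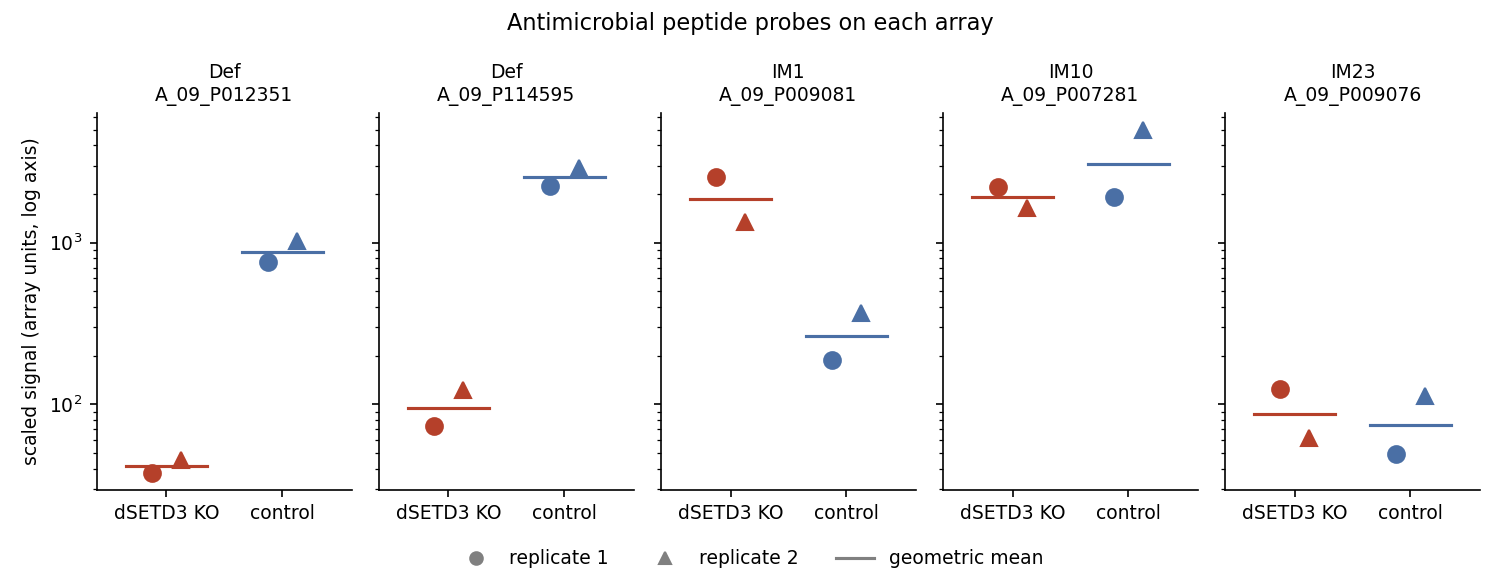
Scaled signal (array units, log axis) of each member probe on each array, with dSETD3 KO to the left and control to the right of each panel, circles for replicate 1, triangles for replicate 2 and a line at the geometric mean of each genotype (n = 2). The dSETD3 KO arrays lie below the control arrays at both Def probes and above them at IM1, and the genotypes overlap at IM10 and IM23.

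At A_09_P012351 the geometric mean was 41.4 in dSETD3 KO flies and 877 in control flies, a log2 change of -4.41 ± 0.19 (SE, n = 2 each) that equals a 21.2-fold lower level (95% interval, 14.8 to 30.4-fold, limma adjusted p = 0.00563). At A_09_P114595 the geometric mean was 94.7 in dSETD3 KO flies and 2546 in control flies, a log2 change of -4.75 ± 0.30 (SE, n = 2 each) or a 26.9-fold lower level (15.4 to 47.0-fold, limma adjusted p = 0.0113). Both intervals lie far from no change and overlap each other widely. Ranked among the 19838 probes detected above background by every array, the Def probes had the second and the third lowest log2 change. Only a probe of transcript FBtr0085919, which had no gene name here, was lower, at -4.82. Probes as bright as those of Def shifted little, when the tested probes were divided into 8 classes by mean signal. The class that held A_09_P012351 had a median log2 change of -0.28, and the class that held A_09_P114595 had one of -0.16.

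Both Def probes detect the transcript FBtr0088432 and thus share their source, so they are not independent samples of the gene. They followed each other closely in control flies, where the log2 value of A_09_P012351 lay below that of A_09_P114595 by a difference of -1.56 on replicate 1 and -1.51 on replicate 2. In dSETD3 KO flies this difference was -0.96 on replicate 1 and -1.43 on replicate 2. Most of that divergence lay on the first dSETD3 KO array, and the probes' log2 changes differed by 0.34. The weak signals carried a larger error as well: the scanner software put it at 13.7% and 14.5% of the signal for A_09_P012351 on the dSETD3 KO arrays, against 10.01% on each control array.

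The direction and rough size of the Def change did not hang on any single array. Leaving out each array in turn gave log2 changes between -4.62 and -4.19 for A_09_P012351 and between -5.12 and -4.38 for A_09_P114595. The adjusted p did depend on the control arrays. Without control replicate 1 it was 0.0747 for both probes, and without control replicate 2 it was 0.115 for A_09_P012351 and 0.137 for A_09_P114595. In both of these limma fits 0 probes on the whole array passed the threshold, and 7183 and 4817 had an unadjusted p under 0.05. With the methods' t-test the adjusted p was 0.130 for A_09_P012351 and 0.135 for A_09_P114595, and without a filter on dim probes it was 0.0563 for A_09_P114595 in limma. The background correction mattered to the size: with normexp, the log2 change of A_09_P012351 was -2.85.

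IM1, the Bomanin BomS1, changed the other way. The scaled signal of its probe A_09_P009081 was 2558 and 1339 on the dSETD3 KO arrays, against 188 and 369 on the control arrays. The genotypes did not overlap, and the closest pair of arrays still differed by 3.63-fold. The geometric mean was 1851 in dSETD3 KO flies and 264 in control flies, a log2 change of 2.81 ± 0.47 (SE, n = 2 each) or a 7.02-fold higher level (95% interval, 2.90 to 17.0-fold, limma adjusted p = 0.0295). IM1 had the 54th highest log2 change of the 19838 probes measured on all arrays. Replicates of the same genotype differed by 1.91-fold in dSETD3 KO flies and by 1.96-fold in control flies, which is wide for this array: 2.68% of probes had a larger difference between the dSETD3 KO replicates and 1.13% between the control replicates. Leaving out control replicate 1 gave a log2 change of 2.33 with an adjusted p of 0.103, and leaving out control replicate 2 gave 3.30 with 0.137, so that IM1 kept its direction and lost its call. The call was also lost with the replicate number as a block (adjusted p = 0.0669), without a filter on dim probes (0.0882) and with the methods' t-test, in which the adjusted p was 0.167 and the 95% interval of the log2 change, -0.09 to 5.71, included 0.

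IM23, the Bomanin BomBc1, showed no change that passed the test. The scaled signal of A_09_P009076 was 123 and 62.0 on the dSETD3 KO arrays, against 49.2 and 112 on the control arrays. Each genotype had a high array and a low one, and the genotypes overlapped. The geometric mean was 87.5 in dSETD3 KO flies and 74.2 in control flies, and the log2 change was 0.24 (95% interval, -1.22 to 1.70, limma adjusted p = 0.741). This interval includes both a 2.33-fold lower and a 3.24-fold higher level, so a sizeable change in either direction was not detectable with these arrays. The sign was not stable: it was negative without control replicate 1, at -0.35, and without dSETD3 KO replicate 1, at -0.26.

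IM10 was measured by A_09_P007281, with a scaled signal of 2205 and 1642 on the dSETD3 KO arrays, against 1910 and 4969 on the control arrays. The second control array stood above the other arrays, which lay within a narrow range, and the genotypes overlapped. The log2 change was -0.70 (95% interval, -2.06 to 0.67, limma adjusted p = 0.322), from a geometric mean of 1903 in dSETD3 KO flies and 3081 in control flies. The value rested on the control arrays: without control replicate 2 the log2 change came to -0.01, and without control replicate 1 it came to -1.38 (95% interval, -2.18 to -0.59, limma adjusted p = 0.0841). The name IM10 is listed for both BaraA1 and BaraA2, near-identical copies of the gene that lie 3 positions apart in the gene order of chromosome arm 2R, and this probe could not be assigned to 1 of them.

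IM1 and IM23 sit next to each other in a row of Bomanin genes on chromosome arm 2R, where RefSeq gives the order BomT1, BomBc1 (IM23), BomS1 (IM1), BomS4 (CG18107), BomBc2 (CG15067) and BomS2. Probes for both genes on the far side of IM1 could be named. CG18107 had a scaled signal of 1680 and 2237 on the dSETD3 KO arrays, against 1702 and 1925 on the control arrays, and its log2 change was 0.10 (95% interval, -0.37 to 0.57, limma adjusted p = 0.670). CG15067 had 12529 and 15297 on the dSETD3 KO arrays, against 12194 and 13667 on the control arrays, at probe A_09_P009091, and its log2 change was 0.10 (-0.28 to 0.48, limma adjusted p = 0.589). The second CG15067 probe, A_09_P110805, had a log2 change of 0.02 (-0.36 to 0.39, limma adjusted p = 0.929). The interval of IM1, from 1.54 to 4.09 on the log2 scale, lay above all 3 of these intervals and overlapped only that of IM23. The difference between IM1 and its neighbours was not tested itself. Of the Bomanin probes outside the member list, 0 of 3 passed the adjusted threshold in limma, and none had an unadjusted p under 0.05 either.

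**Figure D2:**
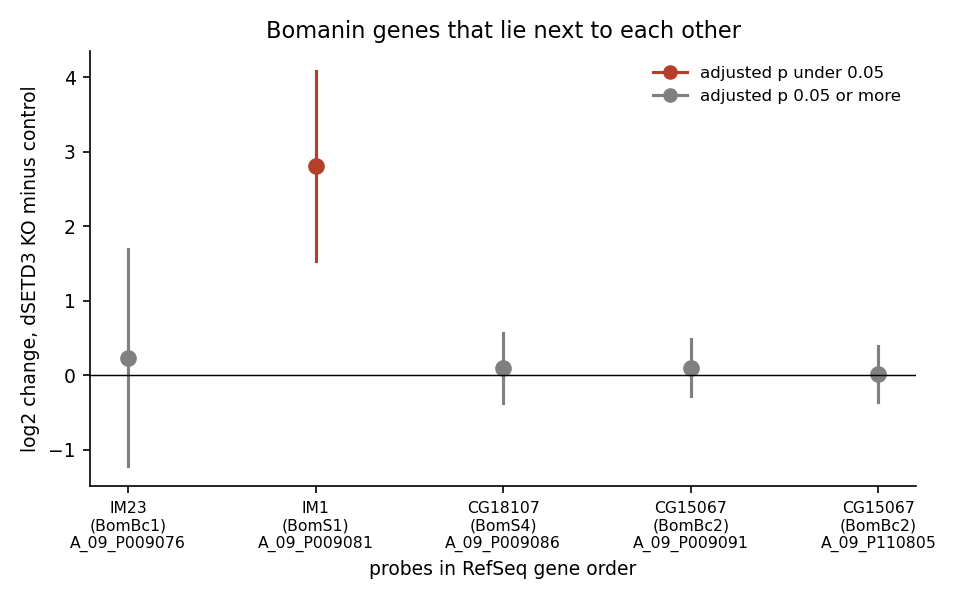
Log2 change, dSETD3 KO minus control (points), with its 95% interval from limma (lines), for the probes of 4 neighbouring Bomanin genes in their order on the chromosome. IM1 stands at 2.81, and the points of IM23, CG18107 and CG15067 lie between 0.02 and 0.24.

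The lists of other immune effectors, of Baramicins and of lysozymes had 1 nameable gene each. Listericin, an antibacterial peptide gene, had a scaled signal of 446 and 453 on the dSETD3 KO arrays, against 315 and 350 on the control arrays. The arrays of a genotype lay close together, and the log2 change of 0.44 ± 0.10 (SE, n = 2 each) passed the test narrowly (limma adjusted p = 0.0482). BaraC (CG30285), a gene of the Baramicin family, had 224 and 160 on the dSETD3 KO arrays, against 19.3 and 18.9 on the control arrays. This was a log2 change of 3.31 ± 0.19 (SE, n = 2 each), or a 9.90-fold higher level (limma adjusted p = 0.00969). BaraC, like Def, owed its name to the list of changed probes. LysP, a lysozyme gene named from the same list, was lower at a log2 change of -1.01 (limma adjusted p = 0.0186). An immune role of BaraC or LysP in these flies was not tested.

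Genes that recognise microbes or pass on the signal had log2 changes between -1.85 and 0.54. In the recognition list, 5 of 7 probes tested were lower, none was higher and 2 did not pass, against 16.6% lower over all probes tested, and the median of the list was -0.76 on the log2 scale. The 5 lower probes belonged to NimB3, PGRP-SC1b and PGRP-SC2. Probes that detect 1 transcript are not independent, so these counts are not counts of genes. Among the 4 probes of the list named whatever their outcome, the 2 of NimB3 were called and the median was -0.57. The 2 probes of NimB3, of the Nimrod family of phagocytosis-related genes, were lower by log2 changes of -0.95 and -0.98. PGRP-SC1b and PGRP-SC2 encode amidases that cut peptidoglycan and dampen the Imd response. PGRP-SC1b had a scaled signal of 5569 and 8065 on the dSETD3 KO arrays, against 27042 and 21546 on the control arrays, a log2 change of -1.85 (limma adjusted p = 0.0201). PGRP-SC2 was lower by log2 changes of -0.76 and -0.72 at its 2 probes. The 3 amidase probes were named from the list of changed probes or through a transcript in it, and the NimB3 probes were not.

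For the Toll pathway, 1 of 3 probes was called, where 20.4% of all probes tested were, so that this count is no result about the pathway. Tl, the Toll receptor, was higher by a log2 change of 0.54 (limma adjusted p = 0.0401). The adaptor genes Myd88, at 0.06, and tub, at 0.11, did not pass. For the Imd pathway and its regulators, 1 of 9 probes tested was called, a share no larger than the 20.4% over all probes tested. It was a probe of sick, a gene needed for nuclear entry of the Imd transcription factor Relish, with a log2 change of -0.69 (limma adjusted p = 0.0346). The other 4 sick probes were between -0.50 and -0.39 and did not pass, and neither did akirin, casp or nub. The transcription factors Dif, dl and Rel had no nameable probe and were not analysed here.

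Among the cytokines and complement-like genes, egr, the fly tumour necrosis factor, was lower at both probes by log2 changes of -0.77 (limma adjusted p = 0.0255) and -1.35 (limma adjusted p = 0.0167). Tep2, a thioester protein related to complement factors, had a signal before scaling of 1035 and 1081 on the dSETD3 KO arrays, against 13.9 and 12.6 on the control arrays, at probe A_09_P064071. That probe was well above background on 3 arrays, and so not on both control arrays. At the other Tep2 probe, A_09_P213450, control flies were not well above background. The level there in dSETD3 KO flies was at least 50.3-fold higher (limma adjusted p = 0.00500), counted against the lowest signal that was well above background. Both Tep2 probes were named from the list of changed probes or through a transcript in it. The cytokine gene upd3 was not well above background on any array.

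**Figure D3:**
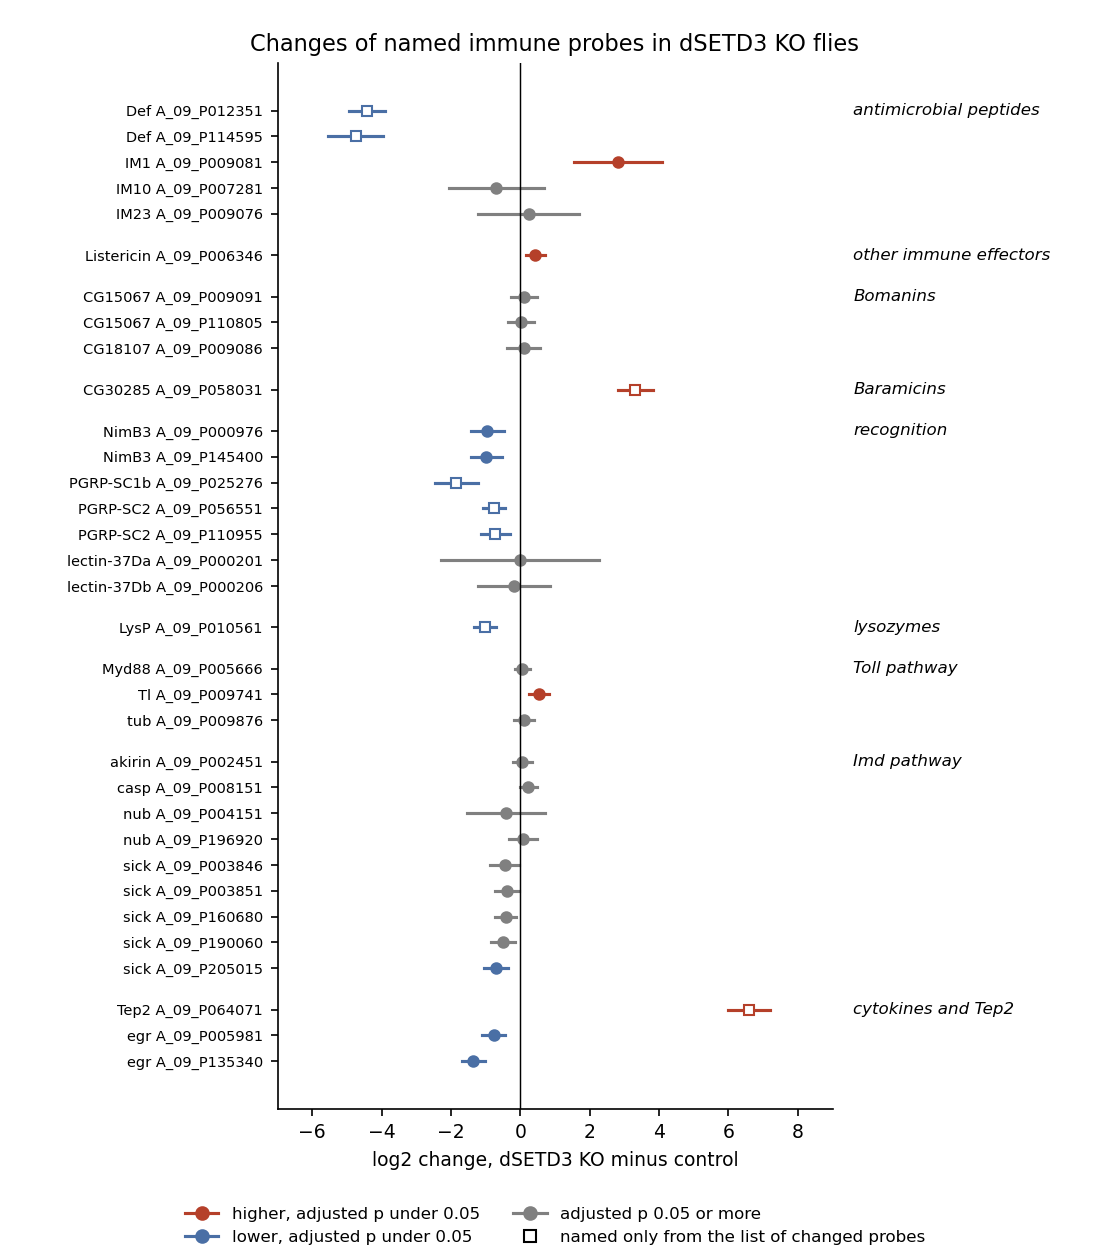
Log2 change, dSETD3 KO minus control (points), with its 95% interval from limma (lines), for the 33 named immune probes that were tested and well above background on at least 3 arrays. Red is higher and blue lower at an adjusted p under 0.05, grey did not pass, and open squares mark probes named only from the list of changed probes. The member probes span log2 changes from -4.75 to 2.81, and the Toll and Imd probes lie between -0.69 and 0.54.

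IM1, IM10 and IM23 shared a pattern between replicates that Def did not have. Each was higher on control replicate 2 than on control replicate 1, by 0.97, 1.38 and 1.19 on the log2 scale for IM1, IM10 and IM23, and each was lower on dSETD3 KO replicate 2 than on replicate 1, by differences of -0.93, -0.42 and -0.99. Over all probes tested, 20.5% had these directions. The difference between replicates ran from -0.42 at the 5th to 0.56 at the 95th percentile of probes for dSETD3 KO, and from -0.26 to 0.45 for control. At both Def probes the second array was the higher one in each genotype, by 0.27 and 0.74 in dSETD3 KO flies and by 0.43 and 0.38 in control flies. Differences in the directions of IM1 and at least of its size in both genotypes were found for 26 probes (0.123% of those tested). These included IM1 itself, IM23 and lectin-37Da, a secreted C-type lectin gene, but not IM10. Lectin-37Da had a scaled signal of 4722 and 1189 on the dSETD3 KO arrays, against 1479 and 3858 on the control arrays, and a log2 change of -0.01. Replicates have no order, so this pattern says only that the same arrays were high or low for these genes.

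**Figure D4:**
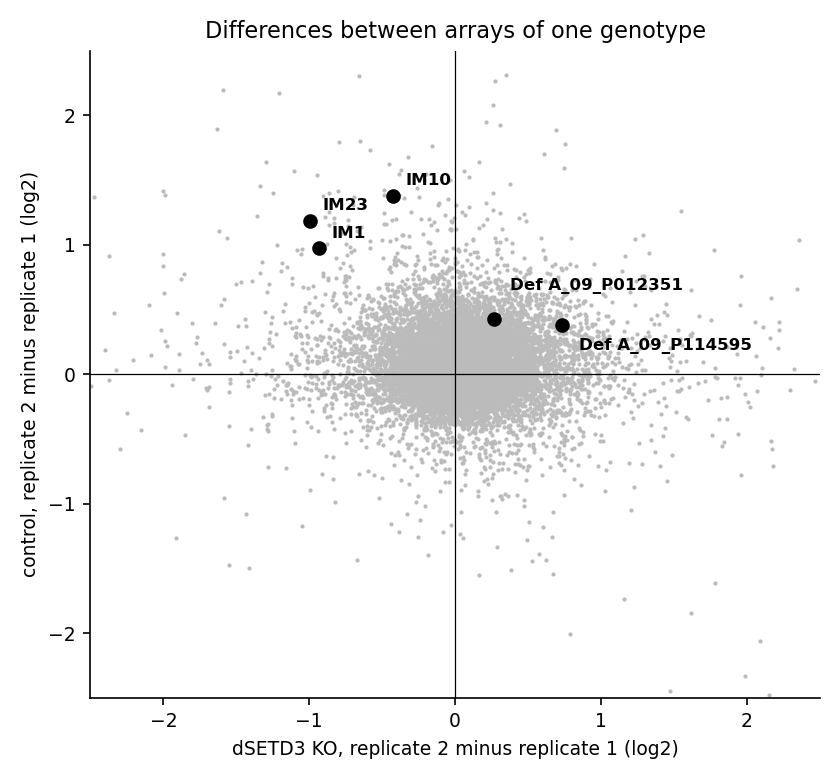
Difference between replicate arrays of a genotype (replicate 2 minus replicate 1, log2) for dSETD3 KO (x axis) and control (y axis), for the member probes (black) and all tested probes (grey, with 81 beyond the axis limits of 2.5 in either direction not shown). IM1, IM10 and IM23 lie up and to the left, outside the bulk of the probes, and the Def probes lie to the right of 0.

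The genes with the profile most like that of Def or IM1 over the 4 arrays were taken by the smallest root mean square difference of mean-centred log2 values among 1933 named probes. For Def these were CG31904, at 0.25 from A_09_P012351 and 0.42 from A_09_P114595, CG3032 and Jon44E, a gut serine protease gene with a log2 change of -3.72. CG3032 had a log2 change of -5.10 and was well above background on only 3 arrays. For IM1 they were Vml, a vitelline membrane gene of ovarian follicle cells, at 0.21, then Cyp4e3 at 0.29 and CG34195 at 0.31. With 4 arrays such a likeness rests mainly on the size of the genotype difference. All of the genes like Def, and Cyp4e3, were named from the list of changed probes, so the match depends in part on which probes had names.

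Tissue markers also moved, beside the changes of Def and IM1. Of the 14 follicle cell marker genes listed, 8 had a nameable probe. Of their 12 probes, 11 were higher and none was lower, where 3.8% of all probes tested were higher. The median of the 12 was 2.91 on the log2 scale. The 4 probes named whatever their outcome were all called, with a median of 2.07. The other 8 were named from the list of changed probes or through a transcript in it. The probe that was not called, A_09_P047621 of Cp7Fb, had scaled signals of 974 and 3.54 on the control arrays. The summed scaled signal of all 12 was 328376 and 357873 on the dSETD3 KO arrays, against 87867 and 110617 on the control arrays. Of the 26 gut marker genes listed, only 2 had a nameable probe, Jon44E and kappaTry. Of their 3 probes 2 were lower, and all 3 were named from the list of changed probes or through a transcript in it. The 2 kappaTry probes differed, with log2 changes of -2.14 (limma adjusted p = 0.0329) and -0.67 (limma adjusted p = 0.102). The summed scaled signal of the 3 gut probes was 1814 and 2460 on the dSETD3 KO arrays, against 6997 and 8843 on the control arrays. These sums did not overlap between the genotypes, and neither did 76.6% of all probes tested. Most probes behind the sums owed their names to the list of changed probes, so the separation follows in part from the naming.

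Fat body markers, from the main source of circulating peptides, were mixed. Of the 14 genes listed, 5 had a nameable probe. Of their 7 probes, 3 were higher, 1 was lower and 3 did not pass, where 20.4% of all probes tested were called. The calls at Pepck, a gluconeogenesis gene with log2 changes of 2.86 and 1.25 at its 2 probes, and at to, with -2.20, belong to probes named from the list of changed probes, and of the 4 probes named whatever their outcome 1 was called. The list had a summed scaled signal of 203378 and 211190 on the dSETD3 KO arrays, against 180762 and 164351 on the control arrays. Most of it came from Yp1 and Yp3, and these sums did not overlap between the genotypes either. The yolk protein genes Yp1, at a log2 change of 0.04, and Yp3, at 0.30, which fat body shares with follicle cells, did not pass the test. Of the 13 hemocyte marker genes listed, only 2 had a nameable probe. These were srp, at -0.02, and ush, at 0.00, and they did not pass either. Their summed scaled signal was 1501 and 1468 on the dSETD3 KO arrays, against 1597 and 1395 on the control arrays. No marker probe was below background on all arrays. The part of these tissues in the changes of Def and IM1 was not tested.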

How the data were processed

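The authors deposited the Feature Extraction 10.7.3.1 output of each array, with spot intensity values after background subtraction and flags for spots well above background, and a table with a single intensity for each probe on each array. Spot error estimates are other values of the same deposited output. The intensities of control replicate 1 were rounded in the deposited output. Control and outlier spots were left out, log2 intensities were averaged per probe and set relative to the array's own 75th percentile. A probe entered the test if both replicates of either genotype were well above background, which held for 21082 of 32162. The genotypes were compared by limma 3.58.1 in R 4.3.3 (lmFit, eBayes) without covariates, and p-values were adjusted by Benjamini-Hochberg over these probes. On simulated data for this comparison (21082 probes, 200 changed by well over 2-fold), 170 of 178 calls were changed probes. Of the changed probes, 85% were called. Changes close to 2-fold or smaller, and a share of changed probes as large as that called here, were not simulated. These counts therefore do not carry over to the real calls. Tables and figures were made in Python 3.11.15.

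Genes were named from 2 probe lists of the study and RefSeq (GCF_000001215.4). The list of all probes was a shortened copy. The members and gene lists were chosen with earlier results of these data known. Named were all probes of the members, effectors, Bomanins and Baramicins, other immune probes changed at least 2-fold at an adjusted p under 0.05, and the 3 named transcripts most like Def and IM1. Tl, sick, PGRP-SC2, NimB3, Myd88, tub, akirin, casp, nub, upd3, the tissue markers and lectin-37Da fall outside this rule and were chosen after their values were seen. The alternatives were quantile and cyclic loess normalization, normexp background correction (on median signals, offset 50), other filters, the table of intensities, the methods' t-test, a replicate block and leaving out each array. Coordinates and sequences are not printed.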

Additional observations from a re-analysis of the deposited data

How the results depend on the processing

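Over 12 alternatives, the log2 change ranged from -4.62 to -2.85 for Def at A_09_P012351 (9 past an adjusted p of 0.05 in limma or the t-test), from -5.12 to -4.001 at A_09_P114595 (8), from 2.33 to 3.30 for IM1 (7), from -1.38 to -0.01 for IM10 (0) and from -0.35 to 0.83 for IM23 (0). The methods' t-test left -4.41 (adjusted p = 0.130), -4.75 (0.135) and 2.81 (0.167). Without a filter on dim probes, -4.75 had an adjusted p of 0.0563 and 2.81 of 0.0882. Leaving out arrays gave -4.62 to -4.19 and -5.12 to -4.38 for Def, 2.33 to 3.30 for IM1, and -0.35 to 0.83 for IM23, which was -0.35 without control replicate 1 and -0.26 without dSETD3 KO replicate 1.

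Probes higher at an adjusted p under 0.05 numbered 801, against 1419 with quantile and 1495 with cyclic loess normalization, 413 with normexp, 38 without a filter, 2184 from the table of intensities and 0 by the t-test, where 6404 had an unadjusted p under 0.05. Probes lower numbered 3497, against 1416 with normexp, 26 without a filter and 2 by the t-test. The share of calls that were higher was 18.6%, against 36.8%, 37.2% and 42.3% with quantile, cyclic loess and the table, and 59.4% without a filter. Leaving out an array gave between 0 and 981 higher and between 0 and 4163 lower, with 0 in limma without control replicate 1 (7183 at an unadjusted p under 0.05) and without control replicate 2 (4817). At the 2-fold limits, probes higher numbered 193 with normexp and 459 without a filter, against 295. Probes lower numbered 593, 603, 277 and 309 with quantile, cyclic loess, normexp and the table, and between 654 (without control replicate 2) and 1517 with an array left out, against 1031.

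The replicate block gave 382 higher probes and 2.81 for IM1 with an adjusted p of 0.0669. Same-numbered arrays tended only weakly to deviate in opposite directions (correlation across probes, -0.21), and the labels tie them to nothing shared. The crossed pairing, added after the data were seen, gave 319 higher and 1400 lower. The cause of these differences was not tested.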
